A study of Homo sapiens with 18 samples.

Results

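SR proteins, heterogeneous nuclear ribonucleoproteins (hnRNPs) and other regulators of splice-site choice were followed across 3 cancer line labels and one drug. The 55 genes were listed by symbol and matched to the counted genes by Ensembl identifier. All 55 were among the 20263 genes of the table. Membership used no measured value, although the genes were listed with earlier results of these data known. The genes comprise 12 SR proteins, 2 TRA2 proteins, 6 SR protein kinases, 21 hnRNPs, 3 PTBP proteins, 3 MBNL proteins, 2 ESRP proteins, 3 RBM proteins and 3 other regulators (RBFOX2, QKI and CELF1). The 18 RNA sequencing libraries were labelled as 3 established human lines: MHCC-97H of liver cancer, MDA-MB-231 of breast cancer and HCT-116 of colon cancer. Each label had 3 libraries of cells given 20 nM H3B-8800 and 3 of cells given its solvent DMSO, both for 24 h with 10% fetal bovine serum, and the genotype of every group was labelled WT. H3B-8800 is a small molecule that binds SF3B1, a core protein of the U2 small nuclear ribonucleoprotein, which recognises the branch point of an intron. The labels do not say whether the 3 libraries of a group were separate cultures, so p-values measure the spread between these libraries, which may be technical.

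SR proteins carry arginine- and serine-rich (RS) tails, bind exonic enhancers and recruit the core splicing machinery to nearby splice sites. Kinases of the SRPK and CLK families phosphorylate these tails, which governs the entry of SR proteins into the nucleus and their release from nuclear speckles. Many hnRNPs and the PTBP proteins act in the opposite sense and silence exons, while MBNL, CELF, RBFOX and ESRP proteins switch exons during differentiation. Many of these genes hold exons whose inclusion sends their own messenger RNA to nonsense-mediated decay, a known feedback on their levels. Gene-level counts measure the amount of RNA assigned to a gene and do not show which isoform was made.

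The line labels need care. The intestinal markers KRT20, LGALS4, VIL1, CDH17 and CDX2 all had reads in the libraries called MDA-MB-231 or HCT-116, where the summed level of the 6 intestinal markers was 1528 to 1642 CPM, counts divided by a library total that was corrected for composition by the TMM method. All 6 had 0 counts under MHCC-97H, and CDX1 had 0 counts under every label. The liver markers ALB, APOA1, TTR, SERPINA1 and AFP had 0 counts in all 6 libraries labelled MHCC-97H, and TF, the other one, had at most 0.0812 CPM. Under the other labels TF (136 to 172 CPM) and ALB (13.9 to 25.2 CPM) made nearly all of the liver sum of 151 to 199 CPM, and APOA1, TTR, SERPINA1 and AFP were each at most 1.48 CPM. The mesenchymal markers went both ways: FN1 had 122 to 157 CPM under MHCC-97H and 8069.6 to 9269 CPM elsewhere, VIM 1190.2 to 1383 CPM and 16.2 to 22.5 CPM, and TWIST1 9.96 to 14.6 CPM and 0 counts. Of the epithelial markers, EPCAM alone was higher under MHCC-97H, at 17.1 to 18.4 CPM against at most 0.181 CPM elsewhere. CDH1 (at most 0.0597 CPM against 17.0 to 28.6 CPM) and KRT19 (at most 0.151 CPM against 709.5 to 937 CPM) were lower there. So were KRT8 (737 to 980 CPM against 2288 to 2985 CPM) and KRT18 (638 to 829 CPM against 953 to 1255 CPM). The 4 leukocyte markers never summed above 2.87 CPM. Between MDA-MB-231 and HCT-116 DMSO libraries the edgeR test called 5 of 14234 genes (0.0351%) and 0 of the 54 tested regulators, with 3 regulators at an unadjusted p under 0.05, so the libraries under those labels are described side by side and not as separate lines. Library totals ran from 28232315 to 41488278 counts. HCT-116 replicate 2 stood apart from replicates 1 and 3 in both treatment groups, and several regulators below show it.

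Promoter sequences are shown for regulators that the results below turn on: PTBP3 and the 3 MBNL genes, all higher after H3B-8800 under MHCC-97H, HNRNPA0, which had the fall with the smallest adjusted p, and HNRNPLL and CLK1, which were furthest above the other labels under MHCC-97H. Each runs from 250 bases before to 50 bases after the start site given by RefSeq on GRCh38.p14 and is read 5′ to 3′ on the strand of the gene. Capitals mark matches, on either strand, to any of 6 motifs, with overlapping matches merged. These are GGGCGG, known as the GC box, and CCAAT, which gives the CCAAT box its name. The ETS site was searched as CCGGAA, the core of the cyclic AMP response element (CRE) as TGACG, the E box as CACGTG and the TATA box as TATAAA.
PTBP3, chr9:112332977-112333276, minus strand: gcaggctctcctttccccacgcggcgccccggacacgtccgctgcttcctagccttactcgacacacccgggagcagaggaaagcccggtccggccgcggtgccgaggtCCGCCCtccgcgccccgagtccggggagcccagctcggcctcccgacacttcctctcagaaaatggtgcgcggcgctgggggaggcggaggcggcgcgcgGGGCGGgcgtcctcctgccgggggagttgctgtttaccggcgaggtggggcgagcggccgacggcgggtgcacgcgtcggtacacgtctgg
MBNL1, chr3:152268679-152268978, plus strand: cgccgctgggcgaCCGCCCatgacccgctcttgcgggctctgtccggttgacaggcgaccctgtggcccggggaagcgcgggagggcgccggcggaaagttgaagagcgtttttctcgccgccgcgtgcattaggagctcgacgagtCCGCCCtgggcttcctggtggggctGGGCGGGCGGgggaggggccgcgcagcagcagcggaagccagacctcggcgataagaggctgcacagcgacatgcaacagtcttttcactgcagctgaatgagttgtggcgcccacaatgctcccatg
MBNL2, chr13:97141584-97141883, plus strand: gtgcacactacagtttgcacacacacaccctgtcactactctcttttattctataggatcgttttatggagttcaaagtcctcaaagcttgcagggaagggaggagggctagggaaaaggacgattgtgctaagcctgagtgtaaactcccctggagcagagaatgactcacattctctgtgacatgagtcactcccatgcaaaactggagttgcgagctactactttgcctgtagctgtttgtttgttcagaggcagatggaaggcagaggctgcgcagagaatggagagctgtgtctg
MBNL3, chrX:132489986-132490285, minus strand: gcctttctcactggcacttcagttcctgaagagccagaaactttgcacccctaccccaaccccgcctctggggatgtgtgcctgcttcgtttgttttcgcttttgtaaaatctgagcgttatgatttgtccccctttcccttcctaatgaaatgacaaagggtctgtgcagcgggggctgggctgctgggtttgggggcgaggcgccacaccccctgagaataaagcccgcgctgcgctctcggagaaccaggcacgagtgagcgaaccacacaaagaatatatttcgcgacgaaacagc
HNRNPA0, chr5:137754314-137754613, minus strand: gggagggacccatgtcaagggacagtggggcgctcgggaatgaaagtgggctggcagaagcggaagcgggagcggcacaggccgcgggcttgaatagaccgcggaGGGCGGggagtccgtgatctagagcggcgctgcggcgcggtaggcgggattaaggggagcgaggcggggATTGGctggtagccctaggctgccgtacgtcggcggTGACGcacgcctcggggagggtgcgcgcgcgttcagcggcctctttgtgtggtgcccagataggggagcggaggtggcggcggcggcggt
HNRNPLL, chr2:38602879-38603178, minus strand: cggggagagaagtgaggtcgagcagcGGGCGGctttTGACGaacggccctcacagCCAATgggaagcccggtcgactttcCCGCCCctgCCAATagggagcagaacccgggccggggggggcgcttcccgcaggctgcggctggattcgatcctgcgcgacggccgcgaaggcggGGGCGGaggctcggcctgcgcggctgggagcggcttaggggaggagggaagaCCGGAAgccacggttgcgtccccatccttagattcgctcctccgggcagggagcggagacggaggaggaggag
CLK1, chr2:200864609-200864908, minus strand: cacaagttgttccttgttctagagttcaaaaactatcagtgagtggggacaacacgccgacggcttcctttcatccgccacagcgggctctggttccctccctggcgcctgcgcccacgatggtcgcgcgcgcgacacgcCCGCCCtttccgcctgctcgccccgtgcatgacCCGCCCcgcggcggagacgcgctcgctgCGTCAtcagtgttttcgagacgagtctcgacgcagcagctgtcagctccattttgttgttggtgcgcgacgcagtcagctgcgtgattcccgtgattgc

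Of the 55 regulators, 47 had a promoter entry of 300 bases. A GC box was present in 32 of them (68.1%), against 45.0% of all 35116 promoters. A CCAAT box was present in 19 (40.4% against 34.6%), a CRE core in 17 (36.2% against 24.6%) and an E box in 10 (21.3% against 7.26%). An ETS site was present in 7 (14.9% against 17.2%) and a TATA box in 5 (10.6% against 11.5%). The median GC content of these promoters was 65.0%, against 58.7% over all. The 35116 are all promoter entries of 300 bases, more than the 20263 genes counted, whereas the regulators are all coding genes. These sets are unlike, and the shares were not compared with those of counted coding genes. The MBNL2 and MBNL3 windows held none of the 6 motifs, whereas the HNRNPLL window held matches to 4 of them. The MBNL2 and MBNL3 windows lie wholly before the start of those genes as annotated in GENCODE 29. For MBNL3 the gap is small, from base 132489986 to the start at 132489968. The MBNL2 window ends at base 97141883, far before the start at 97221434, so it may not describe the promoter of the gene as annotated there. A match is a description of the letters and not a bound site.

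Under the MHCC-97H label, regulators moved both ways after H3B-8800, and the 3 largest rises were those of the muscleblind genes MBNL3 and MBNL1 and of PTBP3, 1 of the 3 polypyrimidine-tract binding genes. Of 54 regulators tested, 21 were called at an edgeR adjusted p under 0.05, 15 higher and 6 lower (38.9% called, against 27.6% of all 14234 genes; 27.8% higher against 12.9%, and 11.1% lower against 14.7%). The median log2 fold change was 0.06 over the regulators and -0.06 over all genes. All 3 treated libraries lay above all 3 DMSO libraries for 25 regulators (background 19.6% of genes) and below them for 13 (background 28%), so 70.4% did not overlap, against 47.6% of all genes. The regulators together took 0.887% to 0.910% of raw counts in H3B-8800 libraries and 0.820% to 0.842% in DMSO libraries. The TMM factors were higher after H3B-8800 too, 0.952 to 0.967 against 0.860 to 0.891. These raw shares are not on the TMM scale, and a higher share need not mean a higher summed CPM. The share of counts from mitochondrially encoded genes was also higher after treatment, 1.37% to 1.39% against 1.14% to 1.22%, and its part in the result was not tested.

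**Figure D1:**
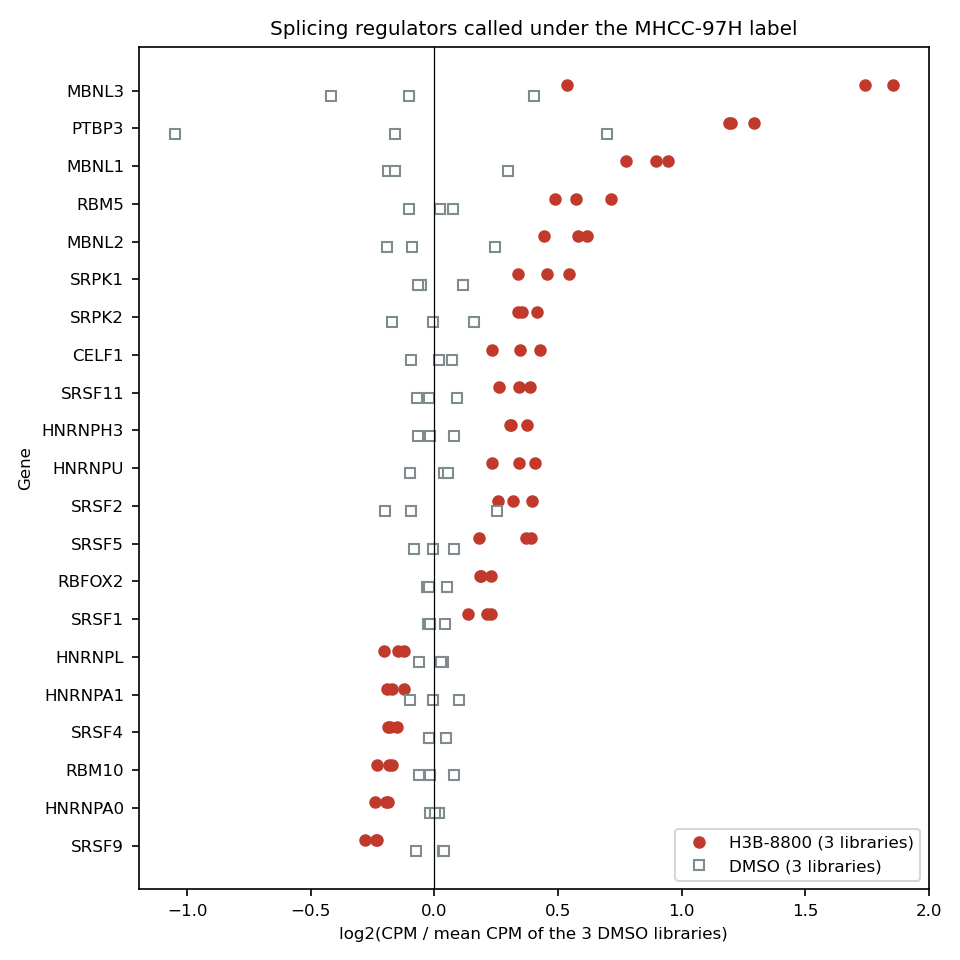
Per-library levels of the 21 regulators called under the MHCC-97H label, as log2 of CPM over the mean of the 3 DMSO libraries (horizontal axis); filled circles are the 3 H3B-8800 libraries and open squares the 3 DMSO libraries of each gene. For all 21 genes the circles lie wholly to one side of the squares, and for PTBP3 the DMSO squares are widely spread.

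The split between higher and lower calls changed when a trend on base composition was removed. Regulator transcripts are rich in A and U, with a median GC content of 42.2% against 49.4% over all genes, and across genes the log2 fold change fell with GC content under this label (Spearman rho -0.42 over the 54 regulators and -0.53 over 14223 genes; genes within one set of libraries share depth and composition and are not replicates). With a trend on GC content and transcript length removed from each library, 5 regulators were higher (SRSF2, SRSF5, CLK2, HNRNPAB and PTBP3; 9.26%, against 7.42% of all genes) and 14 lower (25.9% against 7.41%), with a median of -0.05. Of these, 3 higher and 3 lower calls were shared with the 21 and 0 were called in opposite directions. Scaling by library totals instead gave 21 higher (38.9%, against 17.6% of all genes) and 0 lower (background 2.43%). Scaling by relative log expression gave 16 higher (29.6% against 13.3%) and 3 lower (5.56% against 11.6%). Directions below are those under TMM scaling unless another is named.

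**Figure D2:**
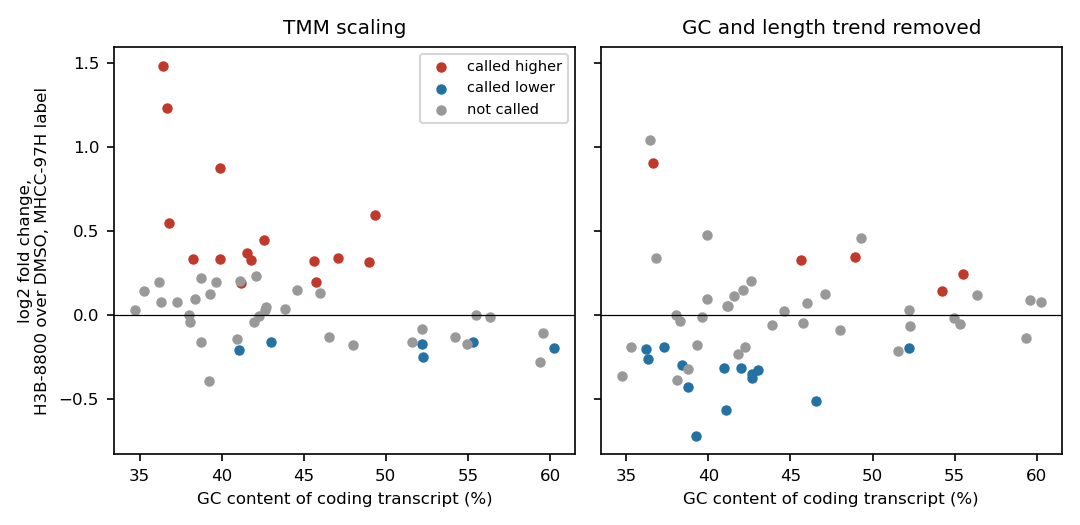
GC content of the longest coding transcript in percent (horizontal) against the log2 fold change of H3B-8800 over DMSO under the MHCC-97H label (vertical) for the 54 tested regulators, with TMM scaling (left) and after removal of the trend on GC content and length (right). Red marks genes called higher, blue genes called lower and grey genes not called; 15 red and 6 blue points on the left are set against 5 and 14 on the right.

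Among the 12 SR proteins tested, 4 were called higher (SRSF1, SRSF2, SRSF5 and SRSF11; 33.3%, against 12.9% of all genes) and 2 lower (SRSF4 and SRSF9; 16.7% against 14.7%), with a median log2 fold change of 0.16. SRSF5 (chromosome 14, 69726900 to 69772005, plus strand), an SR protein that shuttles between nucleus and cytoplasm, had 100.3, 98.8 and 86.6 CPM in H3B-8800 libraries, against 80.9, 76.3 and 72.3 CPM in DMSO libraries (log2 fold change 0.32, SE 0.09, edgeR adjusted p = 0.018). Every treated library was above every control. SRSF4 (chromosome 1, 29147743 to 29181987, minus strand), one of the larger SR proteins, had 224, 219 and 220.1 CPM after H3B-8800, against 245, 257 and 245 CPM in DMSO (-0.17, SE 0.05, adjusted p = 0.027). SRSF9 (chromosome 12, 120461668 to 120469793, minus strand; exons overlap GATC on the other strand) had 329, 328 and 318 CPM after H3B-8800, against 367, 395 and 397 CPM in DMSO (-0.25, SE 0.08, adjusted p = 0.031). Both falls were of non-overlapping groups and ended under library totals (adjusted p = 0.67 for SRSF4 and 0.31 for SRSF9). The SRSF5 call was kept after removal of the trend on GC content and length (0.34, adjusted p = 0.017), and so was the SRSF4 call (-0.20, adjusted p = 0.015). SRSF9 was then at -0.06 and not called, nor was it under relative log expression scaling (adjusted p = 0.058). Leaving out 1 library ended the SRSF5 call for 4 of 18 libraries (adjusted p 0.054 to 0.077), the SRSF4 call for 5 (0.055 to 0.10) and the SRSF9 call for 5 (0.067 to 0.10), all of the MHCC-97H label.

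The other called SR proteins had small rises. SRSF2, which recognises exonic enhancers and lies antisense to MFSD11, rose by 0.32 (SE 0.10, edgeR adjusted p = 0.028), SRSF11, also called p54, by 0.33 (SE 0.12, adjusted p = 0.044) and SRSF1, the archetypal SR protein, by 0.19 (SE 0.07, adjusted p = 0.046). SRSF1 had 194, 196 and 184 CPM after H3B-8800, against 164, 172 and 165 CPM in DMSO. The SRSF2 call ended on leaving out any of 4 of the 18 libraries (adjusted p 0.066 to 0.12), the SRSF11 call for 9 (0.052 to 0.13) and the SRSF1 call for 12 (0.051 to 0.13). SRSF2 was still called once the trend was removed (0.33, adjusted p = 0.040), while SRSF11 turned to -0.03 and SRSF1 stood at 0.05, neither called. The TRA2 proteins, which resemble SR proteins and bind purine-rich enhancers, were not called (TRA2A 0.20, SE 0.11; TRA2B 0.05, SE 0.08). Summed over the 12 SR proteins, the level was 1247 ± 32.7 CPM after H3B-8800 and 1238 ± 17.6 CPM in DMSO (SD, n = 3 each), a difference within the spread between libraries.

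Both SRPK kinases rose and none of the 4 CLK kinases was called (33.3% of the 6 kinases higher, against 12.9% of all genes). SRPK2 (chromosome 7, 105110704 to 105399308, minus strand; exons overlap KMT2E on the other strand) had 52.8, 55.6 and 53.3 CPM after H3B-8800, against 46.6, 37.1 and 41.5 CPM in DMSO (log2 fold change 0.37, SE 0.10, edgeR adjusted p = 0.013). SRPK1 (chromosome 6, 35832966 to 35921342, minus strand; exons overlap LHFPL5 on the other strand), the founding SR protein kinase, had 76.6, 88.4 and 82.9 CPM after H3B-8800, against 65.5, 58.3 and 57.9 CPM in DMSO (0.45, SE 0.13, adjusted p = 0.022). The groups did not overlap for either gene. Without DMSO replicate 2 the adjusted p of SRPK2 was 0.063, and leaving out any of 4 libraries of the label ended the SRPK1 call (0.050 to 0.081). Neither was called once the trend on GC content and length was removed (0.11, adjusted p = 0.25 for SRPK2; 0.20, adjusted p = 0.15 for SRPK1). The CLK genes, nuclear kinases that release SR proteins from speckles, ran from -0.13 for CLK3 to 0.13 for CLK1.

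Of the 21 hnRNPs, 2 were called higher and 3 lower (23.8% called, against 27.6% of all genes), with a median of -0.04. HNRNPU (chromosome 1, 244840638 to 244864560, minus strand; exons overlap COX20 on the other strand), a nuclear-matrix protein also called SAF-A, had 327, 289 and 313 CPM after H3B-8800, against 230.5, 253 and 256 CPM in DMSO (log2 fold change 0.33, SE 0.08, edgeR adjusted p = 0.012). HNRNPH3 (chromosome 10, 68331174 to 68343191, plus strand; exons overlap RUFY2 on the other strand), of the G-tract-binding H family, had 89.0, 88.6 and 93.1 CPM after H3B-8800, against 75.7, 70.9 and 68.6 CPM in DMSO (0.33, SE 0.09, adjusted p = 0.013). Both were higher in every treated library. HNRNPU turned to -0.23 after removal of the trend on GC content and length (adjusted p = 0.17), and HNRNPH3 was then at 0.09 (adjusted p = 0.24). Leaving out DMSO replicate 3 ended the HNRNPH3 call (adjusted p = 0.057).

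HNRNPA0 (chromosome 5, 137745651 to 137754376, minus strand), a single-exon hnRNP of the A/B group, had 104, 101 and 105 CPM after H3B-8800, against 118, 121 and 119.7 CPM in DMSO (log2 fold change -0.21, SE 0.05, edgeR adjusted p = 0.0070). The groups were tight and did not overlap, and this was the smallest adjusted p among the 54 regulators under TMM scaling. The change was -0.56 after removal of the trend on GC content and length (adjusted p = 0.0040) and -0.08 under library totals (adjusted p = 0.27). HNRNPA1 (chromosome 12, 54280193 to 54287088, plus strand), the abundant exon silencer of the same group, had 1209, 1251 and 1193 CPM after H3B-8800, against 1271, 1461 and 1355 CPM in DMSO (-0.16, SE 0.05, adjusted p = 0.020). HNRNPL (chromosome 19, 38836388 to 38852347, minus strand), which binds CA repeats, had 383, 368 and 389 CPM after H3B-8800, against 406, 434 and 431 CPM in DMSO (-0.16, SE 0.05, adjusted p = 0.033). Neither pair of groups overlapped, but 28.8% of HNRNPA1 and 15.8% of HNRNPL 50-base stretches recur in other annotated genes, so their levels are uncertain. Both calls ended under library totals (adjusted p = 0.77 for each) and on leaving out any of 4 libraries of the label (0.058 to 0.11 for HNRNPA1, 0.070 to 0.12 for HNRNPL). HNRNPA1 was still called after the trend was removed (-0.33, adjusted p = 0.0011) and HNRNPL was not (-0.05, adjusted p = 0.32). A fit of the 6 MHCC-97H libraries alone ended both calls (adjusted p = 0.17 for HNRNPA1 and 0.072 for HNRNPL). HNRNPL was also not called under relative log expression scaling (0.082) or by DESeq2 (0.059).

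The other 16 hnRNPs were not called, and 10 of them did not overlap between groups; over all 21, 71.4% did not overlap, against 47.6% of all genes. HNRNPC, which binds uridine tracts, had 474, 552 and 632 CPM after H3B-8800, against 663, 651 and 861 CPM in DMSO (-0.39, SE 0.15, edgeR adjusted p = 0.060), and 10.9% of its 50-base stretches recur in other genes. HNRNPM, which binds GU-rich sites, had 68.7, 67.6 and 65.8 CPM after H3B-8800, against 78.4, 72.4 and 76.8 CPM in DMSO (-0.17, SE 0.06, adjusted p = 0.053). HNRNPLL, the HNRNPL paralogue that shapes CD45 splicing in lymphocytes, had 258, 256 and 252 CPM after H3B-8800, against 282, 292 and 280.3 CPM in DMSO (-0.16, SE 0.06, adjusted p = 0.053). All 3 of these were lower in every treated library and narrowly missed the threshold. Summed over the 21 hnRNPs, the level was 6606 ± 38.8 CPM after H3B-8800 and 6869 ± 273 CPM in DMSO (SD, n = 3 each).

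PTBP3, a polypyrimidine-tract binding repressor first known from blood cells, and the 3 muscleblind genes all rose. PTBP3 (chromosome 9, 112217716 to 112333667, minus strand) had 153, 163 and 152 CPM after H3B-8800, against 108, 59.5 and 32.0 CPM in DMSO (log2 fold change 1.23, SE 0.30, edgeR adjusted p = 0.0089). Treated libraries were close together, while the DMSO libraries were widely spread. The call was kept in each of the 18 fits that left out a library and after removal of the trend on GC content and length (0.90, adjusted p = 0.030), but not in a fit of the 6 MHCC-97H libraries alone (1.29, adjusted p = 0.11). Its relatives were not called. PTBP1, the widespread repressor, had 203, 213 and 181 CPM after H3B-8800, against 209, 271 and 245 CPM in DMSO (-0.28, SE 0.16, adjusted p = 0.21), and PTBP2, the neuronal form, had 1.51, 2.22 and 5.23 CPM against 4.11, 2.84 and 1.79 CPM. Both overlapped.

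The MBNL proteins bind YGCY motifs and promote adult splice patterns, and their sequestration by repeat RNA underlies myotonic dystrophy. MBNL1 (chromosome 3, 152243828 to 152465780, plus strand; exons overlap the antisense gene MBNL1-AS1) had 67.7, 70.1 and 62.2 CPM after H3B-8800, against 44.7, 31.9 and 32.5 CPM in DMSO (log2 fold change 0.87, SE 0.24, edgeR adjusted p = 0.017). MBNL3 (X chromosome, 132369317 to 132489968, minus strand), the least abundant, had 11.1, 4.82 and 12.0 CPM after H3B-8800, against 2.48, 3.09 and 4.39 CPM in DMSO (1.48, SE 0.40, adjusted p = 0.014). Its second treated library lay just above its highest control. MBNL2 (chromosome 13, 97221434 to 97394120, plus strand) had 43.9, 49.6 and 48.4 CPM after H3B-8800, against 38.3, 28.3 and 30.4 CPM in DMSO (0.55, SE 0.18, adjusted p = 0.035). Summed over the family, the level was 123 ± 1.05 CPM after H3B-8800 and 72.0 ± 11.9 CPM in DMSO (SD, n = 3 each). After removal of the trend on GC content and length, none of the 3 was called (0.48, adjusted p = 0.073 for MBNL1; 0.34, adjusted p = 0.15 for MBNL2; 1.04, adjusted p = 0.068 for MBNL3). Leaving out a library ended the MBNL1 call for 3 of the 18 (0.052 to 0.068), the MBNL2 call for 5 (0.053 to 0.13) and the MBNL3 call for DMSO replicate 2 (0.051) and H3B-8800 replicate 3 (0.050).

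Among the remaining regulators, 3 rose and 1 fell. CELF1 (chromosome 11, 47465933 to 47565569, minus strand; exons overlap PTPMT1 and NDUFS3 on the other strand), which opposes MBNL proteins at many exons, had 129, 122 and 113 CPM after H3B-8800, against 89.6, 100.4 and 97.0 CPM in DMSO (log2 fold change 0.34, SE 0.08, edgeR adjusted p = 0.0098). RBFOX2 (chromosome 22, 35738736 to 36028425, minus strand), which binds UGCAUG, had 112, 115 and 112 CPM after H3B-8800, against 102, 96.1 and 96.8 CPM in DMSO (0.20, SE 0.06, adjusted p = 0.020). RBM5 (chromosome 3, 50088908 to 50119021, plus strand; exons overlap RBM6 on the same strand), a spliceosomal protein that acts on apoptosis genes, had 15.5, 13.2 and 14.0 CPM after H3B-8800, against 9.93, 8.77 and 9.57 CPM in DMSO (0.59, SE 0.17, adjusted p = 0.017). RBM10 (X chromosome, 47144869 to 47186813, plus strand; exons overlap NDUFB11 on the other strand), its paralogue, had 53.4, 55.7 and 55.1 CPM after H3B-8800, against 61.8, 60.1 and 66.2 CPM in DMSO (-0.20, SE 0.06, adjusted p = 0.031). All 4 were groups without overlap, and these paralogues were called in opposite directions under TMM scaling. After removal of the trend on GC content and length, RBFOX2 turned to -0.05 and RBM10 to 0.08, CELF1 was at 0.12 and RBM5 at 0.46, and none of the 4 was called. Leaving out 1 library of the label ended the RBFOX2 call for 3 libraries (adjusted p 0.067 to 0.069), the RBM5 call for 3 (0.052 to 0.063) and the RBM10 call for 4 (0.063 to 0.14). The RBM10 call also ended under relative log expression scaling (0.060), library totals (0.49) and the 6 libraries alone (0.096), and the RBM5 call in limma voom (0.072).

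QKI, which binds ACUAA motifs, was higher in all 3 treated libraries but not called (log2 fold change 0.22, SE 0.15), and RBM39, a U2AF-like coactivator, was at 0.03 (SE 0.08). ESRP2, which maintains epithelial exons, had 19.2, 12.9 and 19.5 CPM after H3B-8800, against 17.9, 17.4 and 20.0 CPM in DMSO, and overlapped. ESRP1, its paralogue, was the 1 regulator not tested: 0.0504 CPM in H3B-8800 replicate 1 of the MHCC-97H label and 0 counts in the other 17 libraries. A count of 0 allows up to 0.0735 to 0.122 CPM in a library, the level of 3 counts, for counting error only. In all, leaving out DMSO replicate 2 or DMSO replicate 3 of this label left 6 regulators called (11.1%, against 16.9% and 14.9% of all genes). Of the 54 tested, 11 were called without H3B-8800 replicate 1 (background 18.9% of genes), 9 without replicate 2 (16.2%) and 13 without replicate 3 (22.2%). Each of these counts was near the general rate. HNRNPA0, PTBP3, CELF1 and HNRNPU, 4 of the 21, were called in every one of the 18 fits.

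Under neither MDA-MB-231 nor HCT-116 was any regulator called. By edgeR, 0 of 54 passed under MDA-MB-231 (background 0.0351% of genes), with 3 at an unadjusted p under 0.05. These were SRSF4 (log2 fold change 0.18, SE 0.05), TRA2A (-0.32, SE 0.11) and HNRNPM (0.15, SE 0.06). Under HCT-116 again 0 passed (background 0.0351%), with RBM39 alone (-0.17, SE 0.08) at an unadjusted p under 0.05. limma voom and DESeq2 also called 0 under each label. Averaged over both labels, 6 against 6 libraries, 0 passed (background 0.0422%) and 5 had an unadjusted p under 0.05, and the bounds of the 95% interval lay a median of 0.13 from the estimate on the log2 scale. Non-overlapping groups numbered 10 of 54 (18.5%, against 18.5% of all genes) under MDA-MB-231 and 2 (3.70%, against 7.00%) under HCT-116.

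**Figure D3:**
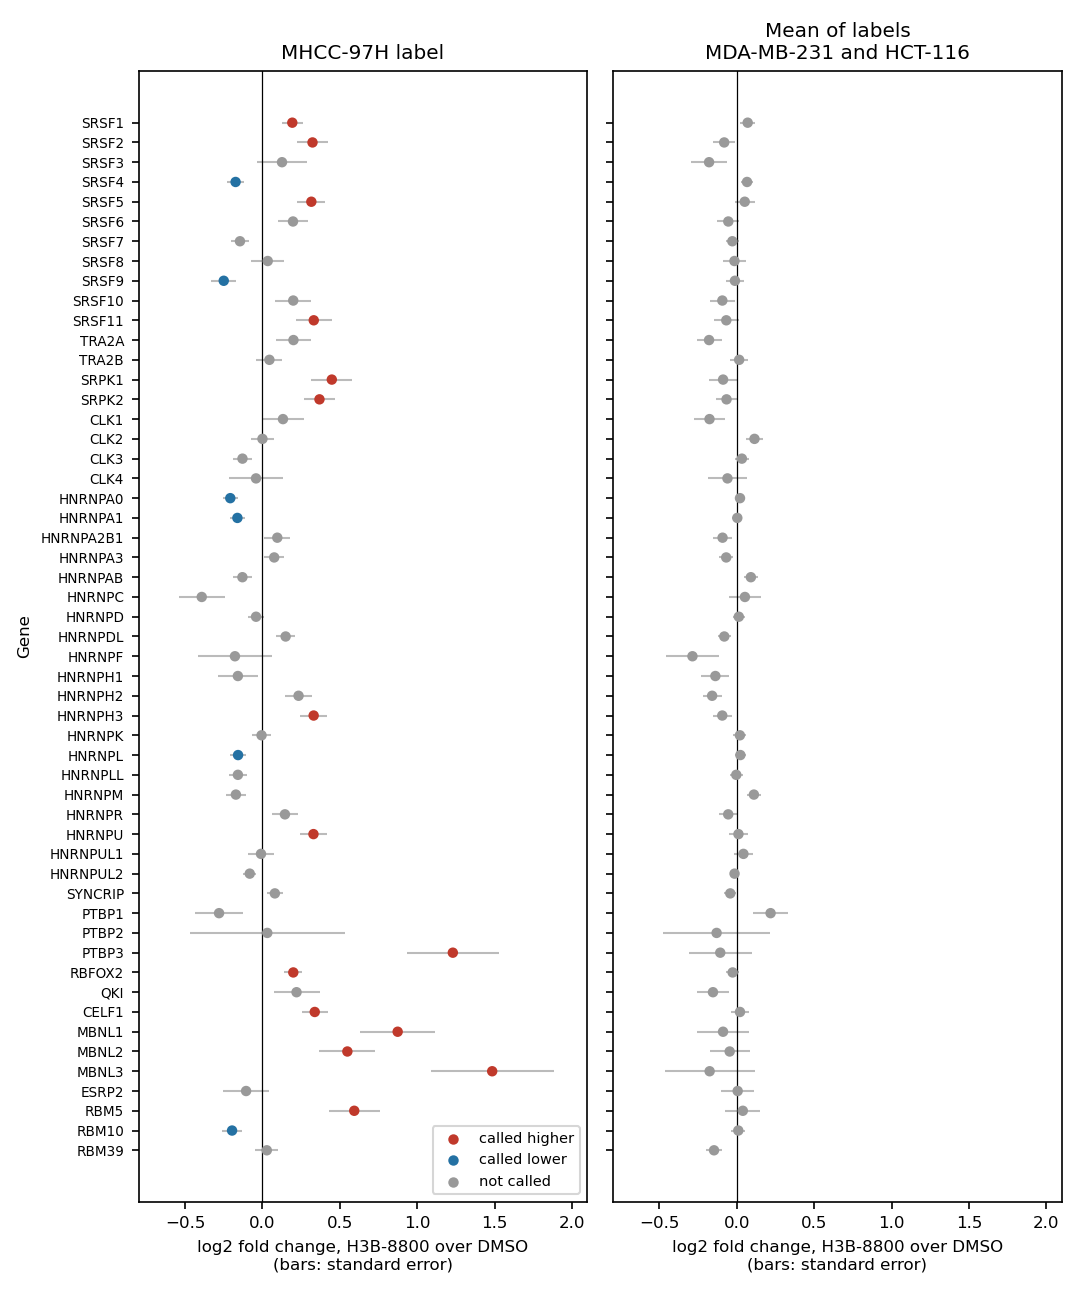
Log2 fold change of H3B-8800 over DMSO with its standard error for 53 tested regulators in the order of their roles, under the MHCC-97H label (left, 3 against 3 libraries) and averaged over HCT-116 and MDA-MB-231 (right, 6 against 6); SRSF12, at 0 counts under MHCC-97H, is left out. Red and blue mark genes called higher and lower; called points appear on the left alone, with PTBP3 at 1.23 and MBNL3 at 1.48 farthest to the right.

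Levels of 3 regulators called under MHCC-97H are given here for the other labels. PTBP3 had 329, 322 and 287 CPM after H3B-8800, against 322, 354 and 328 CPM in DMSO under MDA-MB-231, and 346, 249 and 403 CPM against 402, 301 and 379 CPM under HCT-116. MBNL1 had 206, 207 and 142 CPM after H3B-8800, against 197, 179 and 206 CPM in DMSO under MDA-MB-231, and 241, 119.8 and 241 CPM against 250.3, 163 and 235 CPM under HCT-116, where replicate 2 was low in both groups. HNRNPA0 had 133, 132 and 141 CPM after H3B-8800, against 126, 135 and 139 CPM in DMSO under MDA-MB-231, and 132, 137 and 125 CPM against 128, 131 and 129 CPM under HCT-116. The groups overlapped for all 3 genes under both labels. Mitochondrially encoded genes took 6.68% to 7.27% of counts after H3B-8800 and 6.34% to 6.41% in DMSO under MDA-MB-231, and 6.47% to 7.74% and 5.94% to 6.72% under HCT-116.

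Whether the response differed between labels was tested directly. The edgeR interaction over the 3 labels called 5 of 54 regulators (9.26%, against 15.4% of all genes), namely SRSF4 (adjusted p = 0.019), HNRNPH3 (0.037), HNRNPA0 (0.040), HNRNPM (0.044) and PTBP3 (0.0497). With a block for the replicate number the interaction called 23 (42.6%, against 25.2% of all genes), and without 1 library the count ran from 0 (without MHCC-97H DMSO replicate 2) to 13 (without HCT-116 DMSO replicate 2). SRSF4 was lower after H3B-8800 under MHCC-97H (above), but had 131, 130.4 and 132 CPM after H3B-8800, against 116, 125 and 105 CPM in DMSO under MDA-MB-231, with no overlap. HNRNPM, likewise lower under MHCC-97H, had 236, 241 and 231 CPM after H3B-8800, against 199, 226 and 212 CPM in DMSO under MDA-MB-231, again with no overlap. HNRNPH3 had 104, 103 and 97.0 CPM after H3B-8800, against 111, 113 and 104 CPM in DMSO under MDA-MB-231, a narrow gap with every treated library lower. The pairwise difference of the MHCC-97H response from the MDA-MB-231 response was called for 13 regulators (24.1% against 20.2% of all genes), 8 higher (14.8% against 10.5%) and 5 lower (9.26% against 9.67%), and from the HCT-116 response for 5 (9.26% against 13.2%), 4 higher (7.41% against 7.01%) and 1 lower (1.85% against 6.18%). Both differences share the MHCC-97H libraries. The PTBP3 response was higher by 1.33 (SE 0.41, adjusted p = 0.036) than under MDA-MB-231 and by 1.35 (SE 0.41, adjusted p = 0.046) than under HCT-116, and that of MBNL3 by 1.49 (SE 0.57, adjusted p = 0.077) and 1.83 (SE 0.57, adjusted p = 0.047).

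In DMSO libraries the levels of most regulators differed between MHCC-97H and the other labels. Against MDA-MB-231, the MHCC-97H DMSO libraries had 42 of 54 regulators called by edgeR (77.8%), 14 higher and 28 lower (25.9% against 39.5% of all genes, and 51.9% against 43.2%). The 28 include SRSF12, which had 0 counts under MHCC-97H and is described below. Against HCT-116 they had 43 called (79.6%), 14 higher and 29 lower (25.9% against 39.5%, and 53.7% against 43%). The backgrounds were 82.7% and 82.5% of all genes, so the regulators were called at about the general rate. Each label has 1 line name, so line and culture cannot be told apart, and the profiles labelled MDA-MB-231 and HCT-116 were nearly alike (above). Removing the GC content and length trend made the split against MDA-MB-231 26 higher (48.1%, against 39.8% of all genes) and 18 lower (33.3% against 42.7%). Scaling by library totals moved the median difference over all genes from MDA-MB-231 to -0.37, against -0.09 under TMM.

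HNRNPLL and the kinases CLK1 and CLK3 were higher under MHCC-97H. HNRNPLL (chromosome 2, 38561978 to 38603586, minus strand) had 282, 292 and 280.3 CPM in MHCC-97H DMSO libraries, against 35.7, 34.6 and 31.0 CPM in MDA-MB-231 and 34.9, 37.1 and 38.8 CPM in HCT-116 DMSO libraries (log2 difference 3.08, SE 0.06 from MDA-MB-231; 2.95, SE 0.06 from HCT-116). CLK1 (chromosome 2, 200853009 to 200864744, minus strand) had 132, 128 and 132 CPM in MHCC-97H, against 29.6, 28.9 and 21.6 CPM in MDA-MB-231 and 28.5, 23.3 and 30.5 CPM in HCT-116 (2.29, SE 0.14; 2.25, SE 0.14). CLK3 (chromosome 15, 74598500 to 74645414, plus strand; exons overlap EDC3 on the other strand) had 185, 198 and 184 CPM in MHCC-97H, against 60.3, 67.8 and 64.8 CPM in MDA-MB-231 and 64.8, 67.5 and 62.8 CPM in HCT-116 (1.56, SE 0.06; 1.54, SE 0.06). No library of one set reached the other for these 3 genes, and the HNRNPLL and CLK1 promoters printed above are theirs.

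MBNL1, PTBP3, RBM5 and HNRNPM were lower under MHCC-97H. MBNL1 had 44.7, 31.9 and 32.5 CPM in MHCC-97H DMSO libraries, against 197, 179 and 206 CPM in MDA-MB-231 and 250.3, 163 and 235 CPM in HCT-116 (log2 difference -2.42, SE 0.25; -2.57, SE 0.25). PTBP3 had 108, 59.5 and 32.0 CPM in MHCC-97H, against 322, 354 and 328 CPM in MDA-MB-231 and 402, 301 and 379 CPM in HCT-116 (-2.33, SE 0.31; -2.44, SE 0.31). Both genes stayed below the other labels after H3B-8800 too, so their rises left the order of the labels unchanged. RBM5 had 9.93, 8.77 and 9.57 CPM in MHCC-97H, against 45.7, 41.8 and 38.7 CPM in MDA-MB-231 and 43.7, 27.9 and 40.8 CPM in HCT-116 (-2.16, SE 0.17; -1.99, SE 0.17). HNRNPM (chromosome 19, 8444767 to 8489114, plus strand) had 78.4, 72.4 and 76.8 CPM in MHCC-97H, against 199, 226 and 212 CPM in MDA-MB-231 and 203, 189 and 205 CPM in HCT-116 (-1.49, SE 0.06; -1.39, SE 0.06). All 7 of these differences had an edgeR adjusted p of at most 3.75e-06 against either label.

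**Figure D4:**
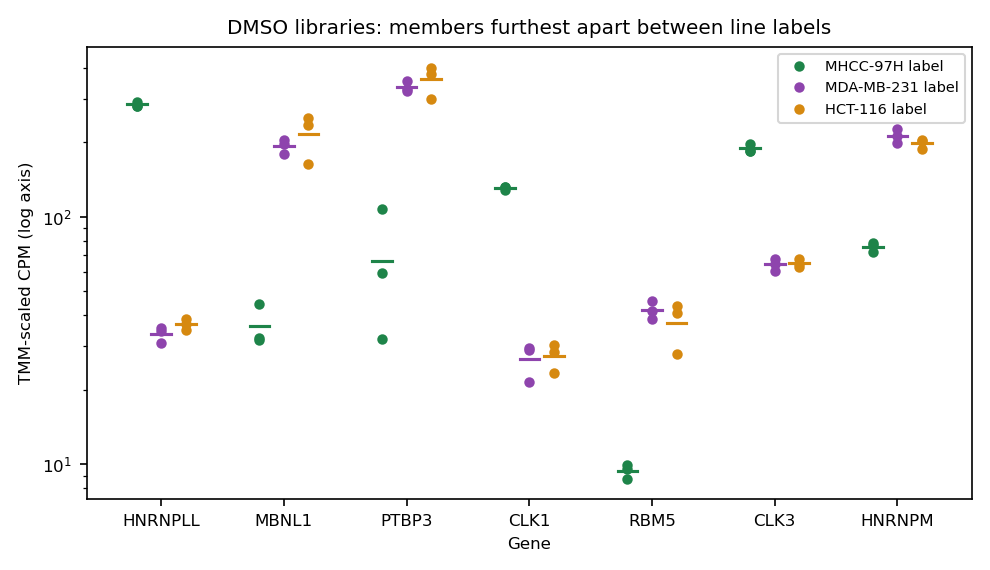
TMM-scaled CPM on a log axis in the 3 DMSO libraries of each line label (points) with the group mean (bar) for 7 regulators with large differences between labels. HNRNPLL, CLK1 and CLK3 are higher under MHCC-97H, MBNL1, PTBP3, RBM5 and HNRNPM lower, and the MDA-MB-231 and HCT-116 points lie together.

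SRSF12, a low-abundance SR protein that opposes other SR proteins, had 0 counts in all 6 MHCC-97H libraries. In DMSO it had 0.399, 0.0571 and 0.211 CPM under MDA-MB-231 (26 counts in all) and 0.271, 0.310 and 0.166 CPM under HCT-116 (29 counts). The level of 3 counts over the MHCC-97H DMSO group is 0.0344 CPM. The MDA-MB-231 mean was 6.47-fold and the HCT-116 mean 7.24-fold that level. These ratios leave out the counting error and spread of the 26 and 29 counts, so they are not lower bounds. SRSF12 passed the filter on low counts only through the libraries where it was present. It is among the 28 regulators called lower against MDA-MB-231 in the counts above, and that call is no support for a difference. In the epithelial regulator family ESRP2 had 17.9, 17.4 and 20.0 CPM in MHCC-97H DMSO libraries, against 31.4, 36.1 and 34.9 CPM in MDA-MB-231 and 21.6, 32.8 and 28.1 CPM in HCT-116 (log2 difference -0.89, SE 0.15, edgeR adjusted p = 5.0e-05; -0.57, SE 0.15, adjusted p = 0.0023). PTBP1 did not differ beyond its spread, at 242 ± 31.1 CPM in MHCC-97H, 223 ± 14.2 CPM in MDA-MB-231 and 243 ± 36.6 CPM in HCT-116 DMSO libraries (SD, n = 3 each).

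Per kilobase of exonic length, an hnRNP came first in every DMSO group. Of the 50-base stretches, 28.8% of HNRNPA1 and 13.3% of HNRNPK recur in other annotated genes, so the levels of both are uncertain. HNRNPA1 was first under MHCC-97H at 267 ± 18.7 CPM per kb, followed by HNRNPK, a KH-domain protein that binds poly(C), at 162 ± 1.61, and SRSF9 at 103 ± 4.59 (SD, n = 3 each). Under MDA-MB-231 HNRNPK stood at 169 ± 15.4 and HNRNPA1 at 155 ± 2.84 CPM per kb, and under HCT-116 at 165 ± 10.8 and 154 ± 3.86 CPM per kb. These neighbours were within about their spread of each other, and HNRNPA2B1, a close relative of HNRNPA1, followed at 112 ± 2.63 and 110.1 ± 11.7 CPM per kb. The order below the first place depended on the length used. Divided by the longest coding transcript instead, HNRNPA1 under MHCC-97H was at 331 CPM per kb, nearly level with SRSF9 at 322 and ahead of HNRNPK at 282. By that length HNRNPK was at 294 CPM per kb under MDA-MB-231 and 287 under HCT-116, and HNRNPA2B1 followed at 283 and 278, ahead of HNRNPA1 at 191 and 190.2.

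What the regulators share beyond their role includes their transcript catalogue. In GENCODE 29, 38 of the 54 tested regulators (70.4%) have a transcript annotated for nonsense-mediated decay, against 41.7% of 14192 tested coding genes, and 38 (70.4%) have a retained-intron transcript, against 55.3%. Under MHCC-97H, 9 of the 38 regulators with a decay transcript were called higher and 4 lower after H3B-8800, against 6 and 2 of the 16 without one. For retained-intron transcripts the counts were 10 and 4 of 38, against 5 and 2 of 16. Over all genes 12.9% were called higher and 14.7% lower. Calls were not counted over coding genes with and without such transcripts, so a relation to the calls cannot be read from these numbers. Such transcripts were not counted separately, so the counts include them. Exons of 27 of the 55 regulators overlap another annotated gene. The strand setting is not given in the sources used here, so reads within the shared stretches may belong to either gene. The length of those stretches was not measured.

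Other genes of the pathway were taken from a listed set of 74, of which 71 were tested. After H3B-8800 under MHCC-97H, 25 were called higher and 8 lower by edgeR (35.2% against 12.9% of all genes, and 11.3% against 14.7%). Cofactors with RS domains, which sit in nuclear speckles with the SR proteins, accounted for 17 of the rises and 0 of the falls among 25 tested (68.0% higher, against 12.9% of all genes), with a median log2 fold change of 0.54. DDX46, a helicase of the U2 complex, had 37.5, 41.9 and 38.8 CPM after H3B-8800, against 22.5, 17.2 and 17.8 CPM in DMSO (1.04, SE 0.15, adjusted p = 0.0010). RBM25, which associates with the U1 particle, had 31.5, 32.9 and 33.4 CPM after H3B-8800, against 20.4, 17.6 and 16.5 CPM in DMSO (0.84, SE 0.13, adjusted p = 0.0016). Outside the RS group, the helicase DDX17 rose by 0.76 (SE 0.11, adjusted p = 0.0011) and RBM15, an adaptor of RNA methylation, by 0.61 (SE 0.10, adjusted p = 0.0017). The protein kinase DYRK2, at the same adjusted p, rose by 0.81 (SE 0.13). The falls with the smallest adjusted p were PCBP2 (-0.22), RALY (-0.35), DAZAP1 (-0.41) and EWSR1 (-0.19), all RNA-binding proteins. After removal of the trend on GC content and length, 11 RS-domain cofactors were higher (background 7.42% of genes) and 1, RSRC2 (-0.44), lower. Under each of the other labels 0 of the 71 genes were called.

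**Figure D5:**
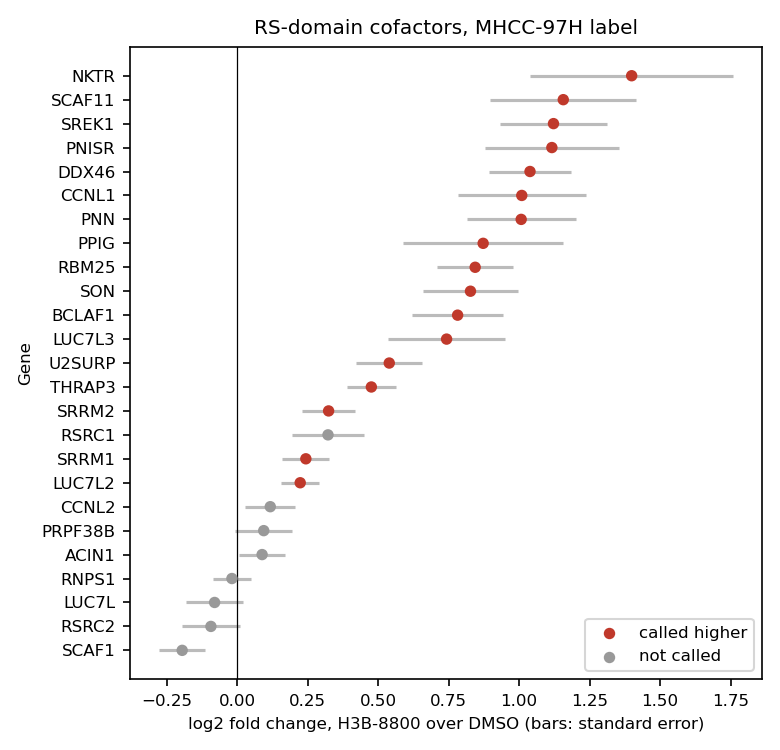
Log2 fold change of H3B-8800 over DMSO with its standard error under the MHCC-97H label for the 25 tested RS-domain cofactors, ordered by size. Red marks the 17 genes called higher; none was called lower.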

How the data were processed

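The authors deposited raw counts, 1 whole number of reads for each Ensembl gene and library. Read trimming with fastp, alignment with HISAT2 and the GRCh38 build are named in the submitters' processing notes. Tool versions, the counter, its strand setting and the library kit were not given in the sources used here. Groups came from the labels. The members, gene lists, tests and alternatives were chosen with earlier results of these data known.

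Counts of all 20263 genes entered an edgeR model (version 4.0.16 in R 4.3.3) with TMM scaling, filterByExpr by group, 1 mean for each of 6 groups over 18 libraries and the robust quasi-likelihood F test. Benjamini-Hochberg adjustment covered the 14234 genes tested, and genes were called at an adjusted p under 0.05. CPM are TMM-scaled. Positions, lengths and transcript types came from GENCODE 29 (GRCh38), and promoters from RefSeq (GRCh38.p14), matched by symbol.

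Alternatives were relative log expression scaling, library totals, keeping every gene, requiring 50 counts in 3 libraries, limma voom (limma 3.58.1), DESeq2 1.42.0, the 6 libraries of a label alone, a replicate block, removal of a GC and length trend (splines with 5 degrees of freedom) and leaving out each library. Per-library values were printed for up to 10 rises and 10 falls under H3B-8800 by adjusted p, the 8 largest DMSO differences between MHCC-97H and MDA-MB-231, the most abundant member of the MBNL, ESRP and PTBP families, the 4 smallest interaction p and members failing the filter. Up to 4 other pathway genes a direction, and ties, were named by adjusted p. Other genes given with values, such as HNRNPC, HNRNPLL, SRPK1 and the further SR proteins, were chosen after their values were seen.

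Libraries of the same number in the treated and DMSO groups were compared by their deviations from group means, which correlated over 9880 genes at 0.02, 0.06 and 0.01 under MHCC-97H, 0.13, 0.02 and 0.09 under MDA-MB-231 and 0.25, 0.46 and 0.17 under HCT-116. All 3 exceeded 0.1 under HCT-116, so those numbers may pair libraries, though HCT-116 treated library 3 correlated at 0.23 with DMSO library 1, above its own number. Fits were unpaired except where the block is named.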

Additional observations from a re-analysis of the deposited data

Results flagged for a closer look

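The response to H3B-8800 differed between line labels for 5 of 54 regulators by the edgeR interaction test over all 14234 genes. That is 9.26%, a lower share than the 15.4% called over all genes. SRSF4 had an adjusted p of 0.0194. Its log2 fold change was -0.17 under MHCC-97H, 0.18 under MDA-MB-231 and -0.05 under HCT-116. HNRNPH3 had an adjusted p of 0.0368, HNRNPA0 of 0.0397, HNRNPM of 0.0442 and PTBP3 of 0.0497. Leaving out 1 of the 18 libraries ended the SRSF4 call in 2 fits (highest adjusted p 0.054), the HNRNPH3 call in 11 (0.11), the HNRNPA0 call in 12 (0.11), the HNRNPM call in 13 (0.11) and the PTBP3 call in 15 (0.13). SRSF4 and HNRNPA0 were lost under library totals (adjusted p = 0.10 and 0.66), as was HNRNPM (0.49). HNRNPH3, HNRNPM and PTBP3 were lost after removal of the trend on GC content and length (0.41, 0.76 and 0.17). HNRNPA0, HNRNPM and PTBP3 were lost under relative log expression scaling (0.079, 0.056 and 0.053) and with no filter on low counts (0.055, 0.054 and 0.069). HNRNPM was also lost in limma voom (0.058) and with the replicate block (0.053).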

How the results depend on the processing

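Over 29 named differences and up to 28 alternatives each, 669 values kept direction and side of the threshold, 110 kept direction alone and 8 reversed. All of the 110 and the 8 fell on H3B-8800 differences under MHCC-97H. The DMSO differences among the 29 were picked as the largest in these data, and all their values were kept, so they raise the 669. SRSF12 is among them, and its kept values are no support for a difference (above). The 5 named interaction tests have no direction, and over up to 27 alternatives each they stayed below the threshold in 65 values and missed it in 70. All 8 reversals came after removal of the trend on GC content and length, without and with the replicate block: HNRNPU (-0.23 and -0.22), RBFOX2 (-0.0499 and -0.0500), SRSF11 (-0.0335 and -0.0333) and RBM10 (0.0767 and 0.0773) under MHCC-97H; the cause was not tested.

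Under MHCC-97H, 15 regulators were called higher (background 12.9% of genes) and 6 lower (14.7%). The 6 libraries of the label alone gave 23 and 3, the GC and length trend removed 5 and 14, that removal with the replicate block 6 and 14, relative log expression scaling 3 lower and library totals 0 lower. RS-domain cofactors gave 11 higher and 1 lower with the trend removed, and 1 lower with the block alone or with both. Leaving out a library gave 6 (background 16.9% and 14.9% of genes) to 26 (30.9%) regulators called. Of these, 4 (8.23%) to 18 (14.8%) were higher, and 1 (6.74% and 9.24%) to 8 (16.1% and 15.0%) lower. Cofactors higher numbered 12 (8.14%) to 18 (14.8%), and 0 were lower. The interaction called 5 regulators (background 15.4% of genes), against 12 with library totals, 2 with no filter and 17 with DESeq2. It called 23 with the replicate block, 8 with the trend removed and 13 with both. Without 1 library it called 0 (background 4.65%) to 13 (19.3%). Counts in this section without a share of all genes beside them are not compared here with the general rate. Where it is given, that rate moved between alternatives too, so such counts are not a result about the regulators. Between DMSO libraries of MHCC-97H and MDA-MB-231 the trend removal gave 26 higher and 18 lower, and leaving out a library gave 40 to 44 called (13 to 16 higher, 27 to 29 lower); against HCT-116 the range was 38 to 44. The other labels gave 0 called in every alternative run. With the longest coding transcript, levels per kb were 331 for HNRNPA1 under MHCC-97H and 294 and 287 for HNRNPK under MDA-MB-231 and HCT-116.

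The replicate block alone gave 18 higher and 8 lower regulators under MHCC-97H. A library of 28232315 to 41488278 counts detects a gene down to about 0.0735 to 0.122 CPM, which limits SRSF12 and ESRP1.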
